A study of Homo sapiens with 28 samples.

Results

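Aminoacyl-tRNA synthetases attach each amino acid to its transfer RNA, and 35 genes for these enzymes were followed here: 19 that act in the cytosol and 16 that act in mitochondria. Members were taken by gene symbol, with mitochondrial enzymes recognised by a symbol that ends in 2, and older symbols such as WARS were read as WARS1. Of 18811 genes named on the array, 33 were synthetases. CARS1 and PARS2, for cysteine and proline, had no named probe in the platform table used here. FARSB, one of the subunits of the phenylalanine enzyme, was detected on 0 of 28 arrays and the mitochondrial tryptophan enzyme gene WARS2 on 1, so 31 genes (17 cytosolic, 14 mitochondrial) passed the detection filter, and each of these was detected on all 28 arrays. GARS1 and KARS1, for glycine and lysine, each supply both compartments from a single gene and were counted with the cytosolic enzymes.

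A cell needs a charged transfer RNA for every amino acid, in the cytosol for proteins made from nuclear genes and in mitochondria for the few proteins of the mitochondrial genome. Almost every mitochondrial enzyme is encoded by a nuclear gene of its own and imported. Shortage of amino acids, misfolded protein in the endoplasmic reticulum and failing mitochondria all lead to phosphorylation of the translation factor eIF2, and the transcription factor ATF4 that is then made is known to switch on many cytosolic synthetase genes, together with amino acid transporters and amino acid synthesis enzymes. The kinase complex mTORC1 is known to raise ATF4 protein as well, in growing cells without such stress.

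RNA was measured on 28 Illumina bead arrays in 3 experiments on human mantle cell lymphoma lines, cell lines grown from a cancer of B cells. The first was a time course of ONC201 in JeKo-1, with wells taken at 0, 12, 24 and 36 h (3 per time; no dose is given in the labels). ONC201 is an anticancer compound that activates CLPP, a protease of the mitochondrial matrix. In the second, parental Z138 cells that had not met ONC201 and Z138 cells resistant to it were kept for 24 h either untreated or with 5 µM ONC201 (2 wells per group); whether the resistant cells are a clone or a pool is not given in the sources used here. The third also used JeKo-1, with 1 µM tunicamycin (12 and 24 h), 10 nM rapamycin (24 h) and an untreated group taken at 24 h, each of 2 wells. Tunicamycin blocks N-linked glycosylation, which loads the endoplasmic reticulum with misfolded protein, and rapamycin inhibits mTORC1. Untreated wells received the solvent DMSO.

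All wells of a line within an experiment came from the same stock culture, so p-values reflect only well-to-well spread, part or all of which may be technical. Each experiment had a chip to itself on which neighbouring places held the wells of a group, so group and place cannot be told apart. Median signals per array lay between 47.5 and 68.7 intensity units, and 29.7% to 35.2% of probes were detected; precision is limited by how few arrays each group has. The B-cell genes CD79A, CD79B and MS4A1 were detected on 28 of 28 arrays, and the T-cell genes CD3D and CD3E, the monocyte gene LYZ and the NK-cell genes NCAM1 and KLRD1 on 0, while other genes of these lists were detected on some arrays: CD3G on 8 and CD2 on 4 (T cells), FCGR3A on 16, CD14 on 7 and CSF1R on 1 (monocytes), and NKG7 on 4 (NK cells). CD22, also on the B-cell list, was detected on 22 arrays, 18 of 20 in JeKo-1 and 4 of 8 in Z138. CCND1, the cyclin gene that marks mantle cell lymphoma, was detected on all 8 Z138 arrays and on 0 of 20 JeKo-1 arrays with the probe used. SOX11, another marker of this lymphoma, was detected on all 28, while CD5, also on the lymphoma list, was detected on 0. In cultures measured in bulk, fewer cells of one kind and less RNA per cell cannot be told apart. Signals below are log2 values after background correction and quantile normalization, and changes are differences of log2 means ± limma's standard error. A gene counts as risen, fallen or called where its Benjamini-Hochberg adjusted p, taken over all genes of the comparison, was under 0.05.

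Because ATF4 acts through a short promoter sequence, the amino acid response element, the promoters of the synthetase genes were read from RefSeq (build GRCh38.p14, windows of 250 bases before and 50 bases from the annotated start, position 0 being the first base of the start). A window was found for 30 of the 35 genes (16 cytosolic, 14 mitochondrial); LARS1, VARS1, VARS2, YARS1 and AARS2 were not matched. The core TTGCATCA was present, on either strand, in 6 of 16 cytosolic genes (AARS1, CARS1, IARS1, MARS1, NARS1 and TARS1) and in 0 of 14 mitochondrial ones, against 0.866% of all 35116 windows and 1.08% of 27305 genes. The broader form TGATGNAA, which includes every match of the core read on the other strand, was present in 7 of 16 cytosolic genes, GARS1 being the addition, and in 1 of 14 mitochondrial genes, YARS2, against 3.62% of windows and 4.46% of genes. Such a match is a description of the letters and shows neither binding nor a cause. The stretches that hold the motif are shown 5′ to 3′ on the strand of the gene, since these genes are followed by name below; the 8 bases of the match are in capitals.
AARS1: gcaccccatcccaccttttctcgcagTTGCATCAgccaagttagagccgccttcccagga
CARS1: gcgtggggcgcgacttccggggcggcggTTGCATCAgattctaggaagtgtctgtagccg
GARS1: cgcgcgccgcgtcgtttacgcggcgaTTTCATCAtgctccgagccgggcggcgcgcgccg
IARS1: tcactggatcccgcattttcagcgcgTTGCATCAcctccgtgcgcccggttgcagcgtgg
MARS1: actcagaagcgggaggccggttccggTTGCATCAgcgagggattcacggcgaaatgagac
NARS1: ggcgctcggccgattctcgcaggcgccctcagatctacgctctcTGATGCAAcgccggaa
TARS1: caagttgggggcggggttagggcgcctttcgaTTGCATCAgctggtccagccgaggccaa
YARS2: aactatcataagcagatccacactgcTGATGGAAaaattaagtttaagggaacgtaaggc
They lie at chr16:70289660-70289719, minus strand (AARS1), chr11:3057394-3057453, minus strand (CARS1), chr7:30594819-30594878, plus strand (GARS1), chr9:92293677-92293736, minus strand (IARS1), chr12:57488038-57488097, plus strand (MARS1), chr18:57621807-57621866, minus strand (NARS1), chr5:33440935-33440994, plus strand (TARS1) and chr12:32756061-32756120, minus strand (YARS2). The match began between positions -13 and 14 in CARS1, IARS1, MARS1, NARS1 and TARS1, at -33 in GARS1, at -187 in AARS1 and at -197 in YARS2. WARS1, the member with the largest rises below, held neither form in either of its 2 windows. The 250 bases before one of its annotated starts are shown for that reason, from chr14:100376328-100376577, minus strand.
WARS1: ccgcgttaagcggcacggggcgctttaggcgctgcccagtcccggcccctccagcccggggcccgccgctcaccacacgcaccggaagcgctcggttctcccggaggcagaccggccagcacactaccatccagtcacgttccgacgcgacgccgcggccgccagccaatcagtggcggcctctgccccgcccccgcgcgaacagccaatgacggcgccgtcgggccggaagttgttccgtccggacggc

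How the genes moved over time with ONC201 was first asked in JeKo-1, with the wells at 0 h as the only control of the course, so that hours in culture are part of every change. At 12 h few genes were called: 3 of 17 cytosolic genes rose, 0 fell and 14 were not called, with a median change of 0.10 against 0.00 for all genes tested. Of the 8809 genes tested, 2.17% were called higher and 1.66% lower, and at an unadjusted p under 0.05 limma put 6 cytosolic genes higher and 2 lower. SARS1, the serine enzyme, read 9.99, 10.02 and 10.00 at 0 h and 10.45, 10.30 and 10.53 at 12 h. It rose by 0.42 ± 0.07 (limma, adjusted p = 0.00589). AARS1, the alanine enzyme, went from 12.92, 12.93 and 12.91 to 13.28, 13.15 and 13.23, a rise of 0.30 ± 0.06. WARS1, the tryptophan enzyme, read 9.84, 9.72 and 9.65 at 0 h and 10.22, 9.98 and 9.99 at 12 h, a rise of 0.33 ± 0.08 (limma, adjusted p = 0.0414). In all 3 genes the arrays at 12 h lay above those at 0 h without overlap. Adjusted over probes in place of genes, this WARS1 probe was not called (limma, adjusted p = 0.0606), while a second WARS1 probe was, at 0.40 ± 0.06 (0.00817). Of the 14 mitochondrial genes 0 rose and 0 fell (1 higher and 0 lower at an unadjusted p under 0.05), with changes from -0.25 to 0.21. Without 12 h replicate 1 or 12 h replicate 3 the count of cytosolic rises was 1, and the calls of AARS1 and WARS1 were each lost in at least 1 fit that left out an array.

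At 24 h cytosolic genes were called in both directions. Of 17, 10 rose, 4 fell and 3 were not called, with a median of 0.46 against 0.00 for all genes, and at 36 h 11 rose and 4 fell with a median of 0.58. Over all genes 19.9% were called higher and 18.5% lower at 24 h, and 25.2% and 26% at 36 h. The 4 falls of 17 at each time are thus near the share over all genes. WARS1 had the largest change of the family. Its signals were 11.86, 11.90 and 11.89 at 24 h and 12.55, 12.62 and 12.52 at 36 h, so that each time lay above the one before without overlap. The rise was 2.15 ± 0.08 at 24 h, or 4.43-fold, and 2.83 ± 0.08 at 36 h, or 7.1-fold (limma, adjusted p = 3.93e-09 and 1.55e-10). The second WARS1 probe gave 2.31 ± 0.06 and 3.02 ± 0.06 at these times. SARS1 came next with signals of 11.26, 11.28 and 11.28 at 24 h and 11.47, 11.50 and 11.56 at 36 h, rises of 1.27 ± 0.07 and 1.51 ± 0.07. Here too the 3 arrays of each time lay above those of the time before.

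Behind these came a group that rose by about the same amount. GARS1 read 11.96, 11.73 and 12.04 at 0 h, 12.28, 12.19 and 12.28 at 12 h, 12.62, 12.81 and 12.71 at 24 h and 12.75, 12.87 and 12.77 at 36 h, and rose by 0.81 ± 0.09 at 24 h (limma, adjusted p = 2.73e-05); the arrays at 24 and 36 h overlapped each other and lay above those at 0 and 12 h. GARS1 makes both the cytosolic and the mitochondrial glycine enzyme. AARS1, at 13.63, 13.75 and 13.75 at 24 h and 13.74, 13.78 and 13.77 at 36 h, rose by 0.79 ± 0.06 and 0.84 ± 0.06. IARS1, for isoleucine, read 11.07, 10.89 and 11.38 at 0 h, 11.72, 11.88 and 11.96 at 24 h and 12.06, 12.16 and 12.07 at 36 h, and rose by 0.74 ± 0.11 and 0.99 ± 0.11. MARS1, which charges the initiator and internal methionine transfer RNAs of the cytosol, went from 11.00, 11.03 and 11.00 at 0 h through 11.18, 11.24 and 11.10 at 12 h to 11.75, 11.69 and 11.73 at 24 h and 11.93, 11.79 and 11.85 at 36 h. It is a subunit of the multisynthetase complex. Its rise was 0.71 ± 0.06 at 24 h and 0.85 ± 0.06 at 36 h. In AARS1, IARS1 and MARS1 the treated arrays of both times lay above all arrays at 0 h. YARS1, TARS1, EPRS1 and LARS1, for tyrosine, threonine, glutamate with proline, and leucine, rose by 0.46 to 0.51 at 24 h and by 0.51 to 0.68 at 36 h. NARS1, for asparagine, stood at 0.22 ± 0.09 at 24 h, which was not called, and rose by 0.40 ± 0.09 at 36 h.

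The 4 cytosolic genes that fell were FARSA, HARS1, RARS1 and VARS1, for phenylalanine, histidine, arginine and valine. FARSA, the catalytic subunit of its enzyme, read 9.92, 10.02 and 9.87 at 0 h and 9.56, 9.43 and 9.55 at 24 h and fell by 0.42 ± 0.07 (limma, adjusted p = 0.000543). HARS1 went from 10.55, 10.52 and 10.52 to 10.08, 10.21 and 10.15 at 24 h and fell by 0.38 ± 0.06. RARS1, at 11.12, 11.09 and 11.11 at 0 h and 10.70, 10.78 and 10.70 at 24 h, fell by 0.38 ± 0.06, and VARS1, at 11.33, 11.66 and 11.24 at 0 h and 11.07, 11.09 and 11.05 at 24 h, fell by 0.34 ± 0.10. In each of these genes the arrays at 24 h lay below those at 0 h without overlap, and each was again called lower at 36 h. KARS1 and QARS1, for lysine and glutamine, were called at neither time. KARS1 read 10.38, 10.29 and 10.52 at 0 h, 10.49, 10.37 and 10.39 at 12 h, 10.30, 10.32 and 10.48 at 24 h and 10.35, 10.28 and 10.32 at 36 h, so that every later time overlapped 0 h, while the arrays at 36 h lay below those at 12 h. Its change was -0.03 ± 0.08 at 24 h.

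**Figure D1:**
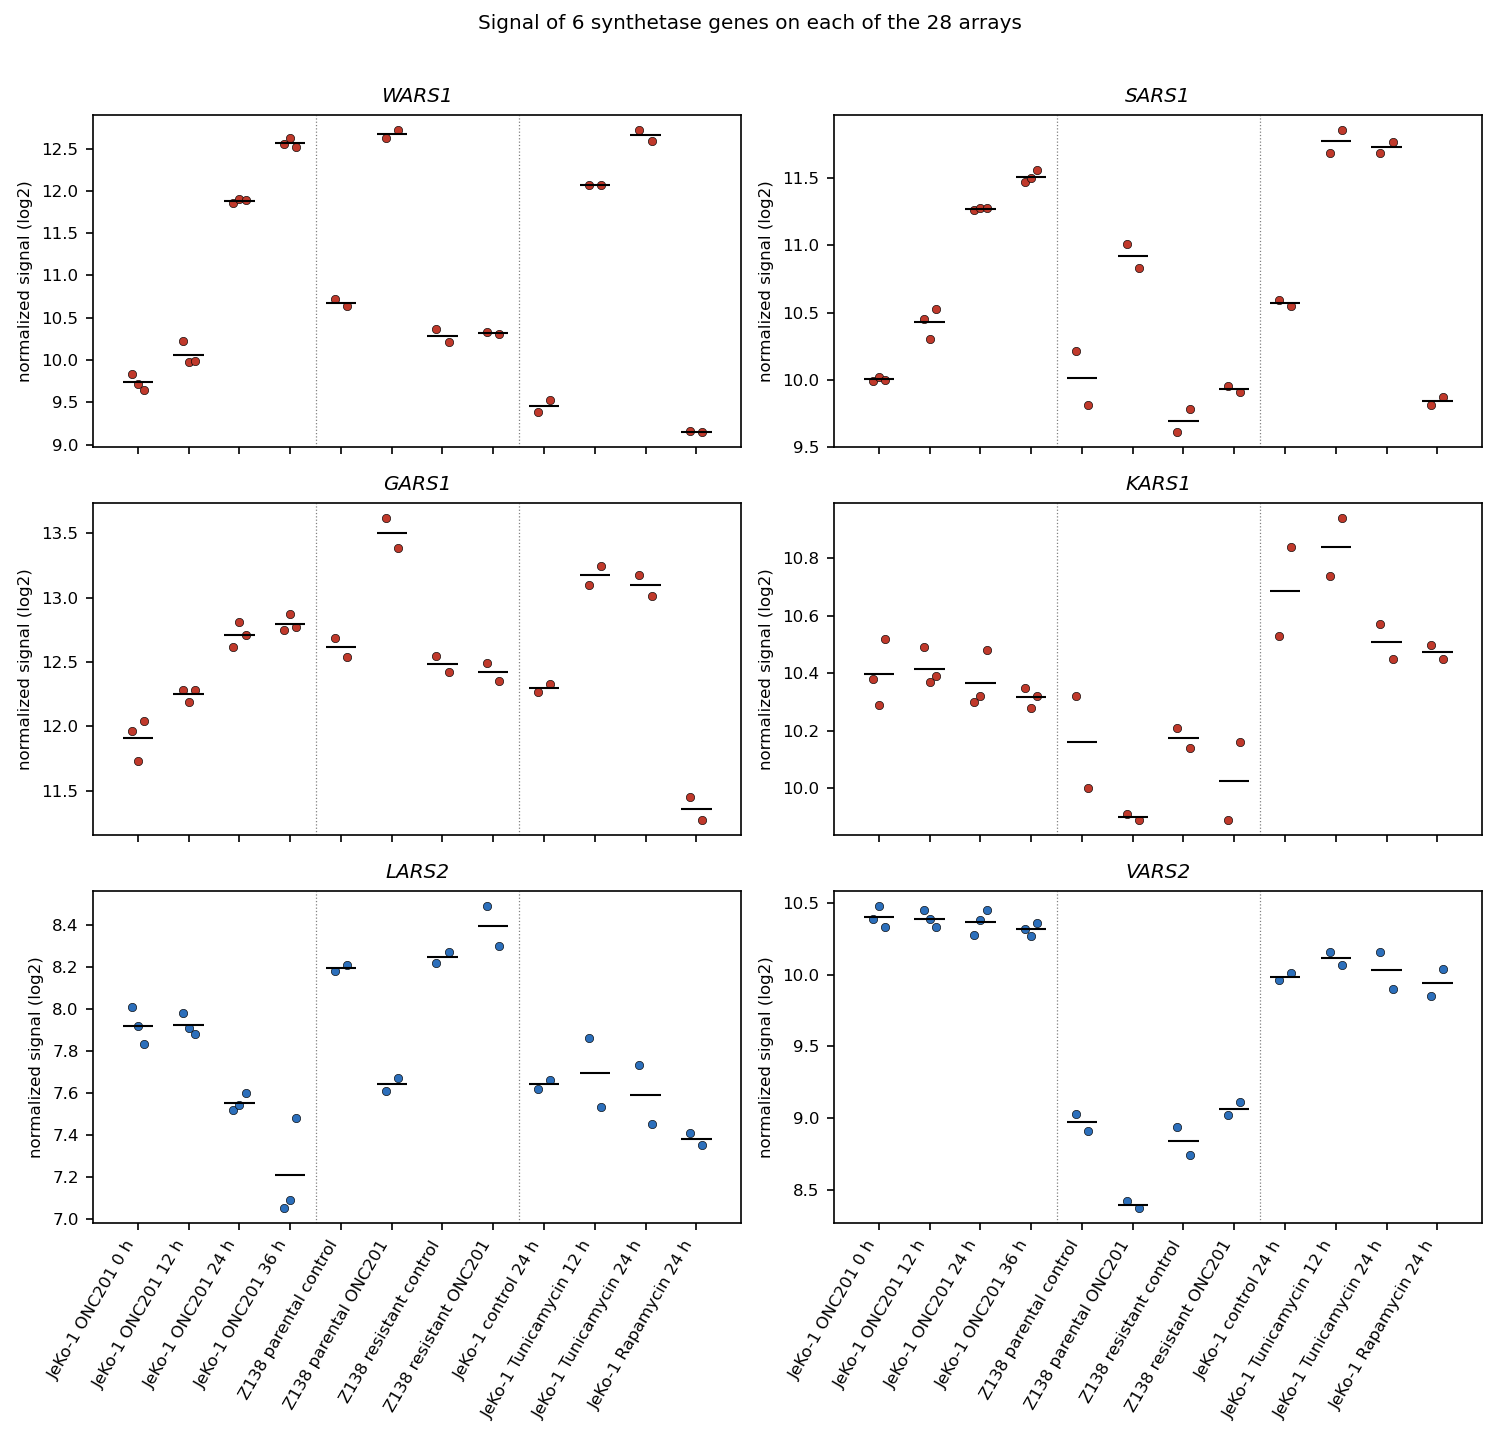
Normalized signal (log2, vertical axis of each panel, which does not start at 0) of 6 synthetase genes on each of the 28 arrays, by group along the horizontal axis; points are arrays, horizontal bars are group means, and dotted lines part the 3 experiments. WARS1 climbed to between 12.52 and 12.62 at 36 h with ONC201 in JeKo-1, while KARS1 at each later time overlapped 0 h. LARS2 fell against 0 h in that course, and stood at 7.64 in untreated JeKo-1 cells at 24 h on another chip. VARS2 was called lower in parental Z138 cells with ONC201 and not in the JeKo-1 course.

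None of the 14 mitochondrial genes rose at 24 h or 36 h, and 3 fell at 24 h and 6 at 36 h (limma; at an unadjusted p under 0.05, 0 were higher and 6 lower at 24 h, and 1 was higher and 7 lower at 36 h). Of all genes 18.5% fell at 24 h and 26% at 36 h, so that the 3 of 14 at 24 h are near the share over all genes. Their median change was -0.13 at 24 h and -0.18 at 36 h. LARS2, the mitochondrial leucine enzyme, read 8.01, 7.92 and 7.83 at 0 h, 7.98, 7.91 and 7.88 at 12 h, 7.52, 7.54 and 7.60 at 24 h and 7.05, 7.09 and 7.48 at 36 h. It fell by 0.37 ± 0.10 at 24 h and by 0.71 ± 0.10 at 36 h (limma, adjusted p = 0.0139 and 0.000108), and the arrays at 36 h lay below those at 24 h, which lay below those at 12 h. YARS2, for tyrosine, went from 9.27, 9.08 and 9.30 at 0 h through 8.92, 9.16 and 8.95 at 24 h to 8.58, 8.69 and 8.73 at 36 h; it was not called at 24 h, where the arrays overlapped those at 0 h, and fell by 0.55 ± 0.08 at 36 h. MARS2, for methionine, read 8.92, 8.61 and 9.03 at 0 h and 8.50, 8.42 and 8.37 at 24 h and fell by 0.43 ± 0.11 with no overlap. CARS2, for cysteine, read 8.45, 8.79 and 8.50 at 0 h and 8.05, 8.12 and 8.23 at 36 h, where it fell by 0.45 ± 0.11. EARS2, whose product loads glutamate onto mitochondrial transfer RNA for glutamate and for glutamine, fell by 0.33 ± 0.10 and 0.41 ± 0.10, and SARS2 fell by 0.38 ± 0.07 at 36 h. AARS2, FARS2, HARS2, IARS2, NARS2, RARS2, TARS2 and VARS2 were called at neither time. The calls of EARS2 and LARS2 at 24 h and of MARS2 at 36 h were lost in at least 1 fit that left out an array, for LARS2 at 24 h in the fit without 0 h replicate 1. The count of 3 at 24 h was 5 when limma's prior was fitted with a trend and made robust.

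A control for time in culture existed only on the chip of the third experiment, where JeKo-1 cells had stood untreated for 24 h; time and chip cannot be told apart in what follows, and no test was made. For several genes untreated cells at 24 h stood as low as cells with ONC201. FARSA stood at 9.93 at 0 h, at 9.50 in untreated cells at 24 h and at 9.51 with ONC201 at 24 h, HARS1 at 10.53, 10.14 and 10.15, and VARS1 at 11.41, 11.09 and 11.07. RARS1 stood at 11.11, 11.03 and 10.73, lower with ONC201 than in both untreated groups. Among the mitochondrial genes, the median difference of untreated cells at 24 h from those at 0 h was -0.33 (4 of 14 higher), and CARS2, YARS2 and MARS2 stood at 7.82, 8.51 and 8.36 there against 8.32, 9.01 and 8.43 with ONC201 at 24 h. EARS2 stood at 8.25 in untreated cells at 24 h and at 8.28 with ONC201 at 24 h. LARS2 stood at 7.64 in untreated cells at 24 h, at 7.55 with ONC201 at 24 h and at 7.21 with ONC201 at 36 h. Among the genes that rose, WARS1 stood at 9.46 in untreated cells at 24 h and at 11.88 with ONC201, IARS1 at 10.72 and 11.85, and MARS1 at 10.61 and 11.72. SARS1 stood 0.57 higher in untreated cells at 24 h than at 0 h and 0.70 higher again with ONC201, GARS1 0.39 and 0.42, while TARS1 at 24 h with ONC201 was at 10.21 against 10.25 untreated. For the whole cytosolic set, untreated cells at 24 h differed from those at 0 h by a median of -0.08, with 7 of 17 higher.

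Between successive times, genes of both compartments were called from 12 h to 24 h. In that interval 10 cytosolic genes rose and 4 fell (all genes: 11% higher and 9.72% lower), with WARS1 up by 1.82 ± 0.08, SARS1 by 0.85 ± 0.07 and MARS1 by 0.55 ± 0.06. The 4 falls, of VARS1, FARSA, RARS1 and HARS1, were each between 0.21 and 0.29 in size, VARS1 going from 11.45, 11.30 and 11.34 at 12 h to 11.07, 11.09 and 11.05 at 24 h and FARSA from 9.77, 9.74 and 9.87 to 9.56, 9.43 and 9.55, neither with overlap. That count of 4 was 2 at a detection p of 0.05 or with no detection filter, 0 without 12 h replicate 3, 1 without any of the 24 h replicates, and 2 without 0 h replicate 1, 12 h replicate 1 or any of the 36 h replicates. LARS2 was the single mitochondrial gene called, at -0.37 ± 0.10, and 0 rose (0 higher and 4 lower at an unadjusted p under 0.05; limma). From 24 h to 36 h, where 6.96% of all genes were called higher and 7.54% lower, WARS1 rose again by 0.68 ± 0.08 and SARS1 by 0.24 ± 0.07, while LARS2 fell by 0.35 ± 0.10 and YARS2 by 0.35 ± 0.08. The other 27 genes were not called, and the calls of SARS1, LARS2 and YARS2 in this interval were lost in at least 1 fit that left out an array.

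The same drug was then compared with untreated cells in parental Z138, where treated and control wells had both stood for 24 h. Most cytosolic genes rose there too: 12 of 17 were called higher, 0 lower and 5 not called, with a median of 0.52, while 22.8% of all 9420 genes were called higher and 22% lower. WARS1 read 10.72 and 10.64 in control wells and 12.63 and 12.72 with ONC201, and rose by 2.00 ± 0.10, or 3.99-fold (limma, adjusted p = 4.92e-06). SARS1 went from 10.21 and 9.81 in control wells to 11.01 and 10.83 with ONC201, a rise of 0.92 ± 0.14. AARS1 went from 12.50 and 12.54 to 13.48 and 13.38 and rose by 0.91 ± 0.09, and GARS1 from 12.69 and 12.54 to 13.62 and 13.39 and rose by 0.89 ± 0.12. In these 4 genes the treated arrays lay above the control arrays without overlap. EPRS1, TARS1, MARS1, IARS1, NARS1, QARS1, LARS1 and YARS1 rose by 0.38 to 0.66. A second IARS1 probe lay near background, at means of 5.23 without and 5.40 with ONC201. It was detected in parental Z138 alone, in 1 of 2 control and 2 of 2 treated wells. Its change of 0.16 ± 0.16 was not called. QARS1, which is also a member of the multisynthetase complex, read 12.39 and 12.24 without and 12.89 and 12.73 with ONC201 and rose by 0.49 ± 0.10. FARSA at -0.33 ± 0.17, HARS1 at 0.20 ± 0.12, KARS1 at -0.26 ± 0.13, RARS1 at -0.09 ± 0.09 and VARS1 at -0.11 ± 0.09 were not called; KARS1 read 10.32 and 10.00 without and 9.91 and 9.89 with ONC201, lower in the treated wells without overlap. At an unadjusted p under 0.05 limma put 0 cytosolic genes lower.

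Of the 14 mitochondrial genes 6 fell and 0 rose in parental Z138 cells with ONC201, with a median of -0.27 (8 lower and 0 higher at an unadjusted p under 0.05; limma). Over all genes 22% were called lower and 22.8% higher. VARS2, for valine, read 9.03 and 8.91 in control wells and 8.42 and 8.37 with ONC201 and fell by 0.57 ± 0.10 (limma, adjusted p = 0.00244). LARS2 went from 8.18 and 8.21 to 7.61 and 7.67 and fell by 0.56 ± 0.10, and MARS2 from 8.89 and 8.75 to 8.25 and 8.34, a fall of 0.53 ± 0.10. In all 3 the treated arrays lay below the controls without overlap. CARS2, YARS2 and FARS2 fell by 0.44, 0.38 and 0.27. Without ONC201 replicate 1 of the parental cells the count of mitochondrial falls was 3, and the calls of LARS1, NARS1, CARS2, FARS2 and YARS2 were each lost in at least 1 fit that left out an array.

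In resistant Z138 cells none of the 31 genes was called with the same 5 µM ONC201 for 24 h (limma), where 0.18% of all genes were called higher and 0.488% lower. At an unadjusted p under 0.05, 3 cytosolic genes were higher and 0 lower, and 2 mitochondrial genes were higher and 1 lower, while 1860 of all genes passed that limit in either direction. WARS1 read 10.37 and 10.21 in control wells and 10.33 and 10.31 with ONC201, a change of 0.03 ± 0.10. GARS1 read 12.55 and 12.42 without and 12.49 and 12.35 with ONC201, and KARS1 10.21 and 10.14 without and 9.89 and 10.16 with it. In all 3 the treated wells overlapped the control wells. The cytosolic median was 0.15 with changes from -0.16 to 0.30, and the mitochondrial median was -0.03 with changes from -0.30 to 0.46, the highest being CARS2.

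The difference between the 2 responses was tested directly, as the resistant effect minus the parental effect. Over all genes 14.3% were called higher and 16.3% lower. Of the cytosolic genes 6 were called lower, which means a smaller rise, or a fall, in resistant cells, and 0 higher (0 higher and 9 lower at an unadjusted p under 0.05; limma). WARS1 differed by -1.96 ± 0.13, GARS1 by -0.96 ± 0.16, TARS1 by -0.75 ± 0.15, SARS1 by -0.69 ± 0.20, AARS1 by -0.65 ± 0.13 and MARS1 by -0.50 ± 0.14 (limma, adjusted p from 9.96e-05 for WARS1 to 0.0311 for SARS1). TARS1, whose product is also secreted, read 10.47 and 10.42 without and 11.07 and 11.02 with ONC201 in parental cells and 10.40 and 10.60 without and 10.43 and 10.27 with it in resistant cells. The parental treated wells stood above the other 3 groups in TARS1 without overlap. EPRS1, IARS1, LARS1, NARS1, QARS1 and YARS1, which had also risen in parental cells, differed by -0.36 to -0.24 and were not called.

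Mitochondrial genes differed the other way: 5 of 14 were called higher, which means a smaller fall, or a rise, in resistant cells, and 0 lower (0 at an unadjusted p under 0.05 too; limma). The shares over all genes were 14.3% higher and 16.3% lower. CARS2 read 8.02 and 7.70 without and 7.40 and 7.43 with ONC201 in parental cells, and 7.63 and 7.96 without and 8.30 and 8.22 with it in resistant cells. The difference of the effects was 0.91 ± 0.20 (limma, adjusted p = 0.0107). CARS2 thus stood lower with ONC201 in parental wells and higher with it in resistant wells. In resistant cells VARS2 read 8.94 and 8.74 without and 9.02 and 9.11 with ONC201, and its effects differed by 0.80 ± 0.14. LARS2 read 8.22 and 8.27 without and 8.49 and 8.30 with it, a difference of 0.71 ± 0.14, and MARS2 8.95 and 8.81 without and 8.84 and 8.94 with it, a difference of 0.54 ± 0.14. AARS2 charges the alanine transfer RNA of mitochondria. It read 8.47 and 8.32 without and 8.02 and 8.23 with ONC201 in parental cells and 8.22 and 8.31 without and 8.58 and 8.45 with it in resistant cells, and the effects differed by 0.52 ± 0.15, although its own change was called in neither. The treated parental wells were the lowest of the 4 groups in CARS2, VARS2, LARS2 and MARS2, without overlap, while in AARS2 they overlapped the untreated resistant wells. The count of 5 was 3 without control replicate 1 or ONC201 replicate 1 of the parental cells or control replicate 2 of the resistant cells; calls of MARS1, SARS1, AARS2 and MARS2 were each lost in at least 1 fit that left out an array.

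Without drug, 1 of the 31 genes was called between resistant and parental Z138 cells. This was EARS2, higher in resistant cells, at 8.93 and 8.92 against 8.42 and 8.53, a difference of 0.45 ± 0.09 (limma, adjusted p = 0.0353), a call lost in every fit that left out a Z138 array. The other 30 were not called, where 1.55% of all genes were called higher and 2.43% lower. WARS1 stood at -0.39 ± 0.10 in untreated resistant against untreated parental cells, with wells that did not overlap, and did not pass the test (limma, adjusted p = 0.0605). At an unadjusted p under 0.05, 3 cytosolic genes were lower and 0 higher, and 2 mitochondrial genes were higher and 0 lower.

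**Figure D2:**
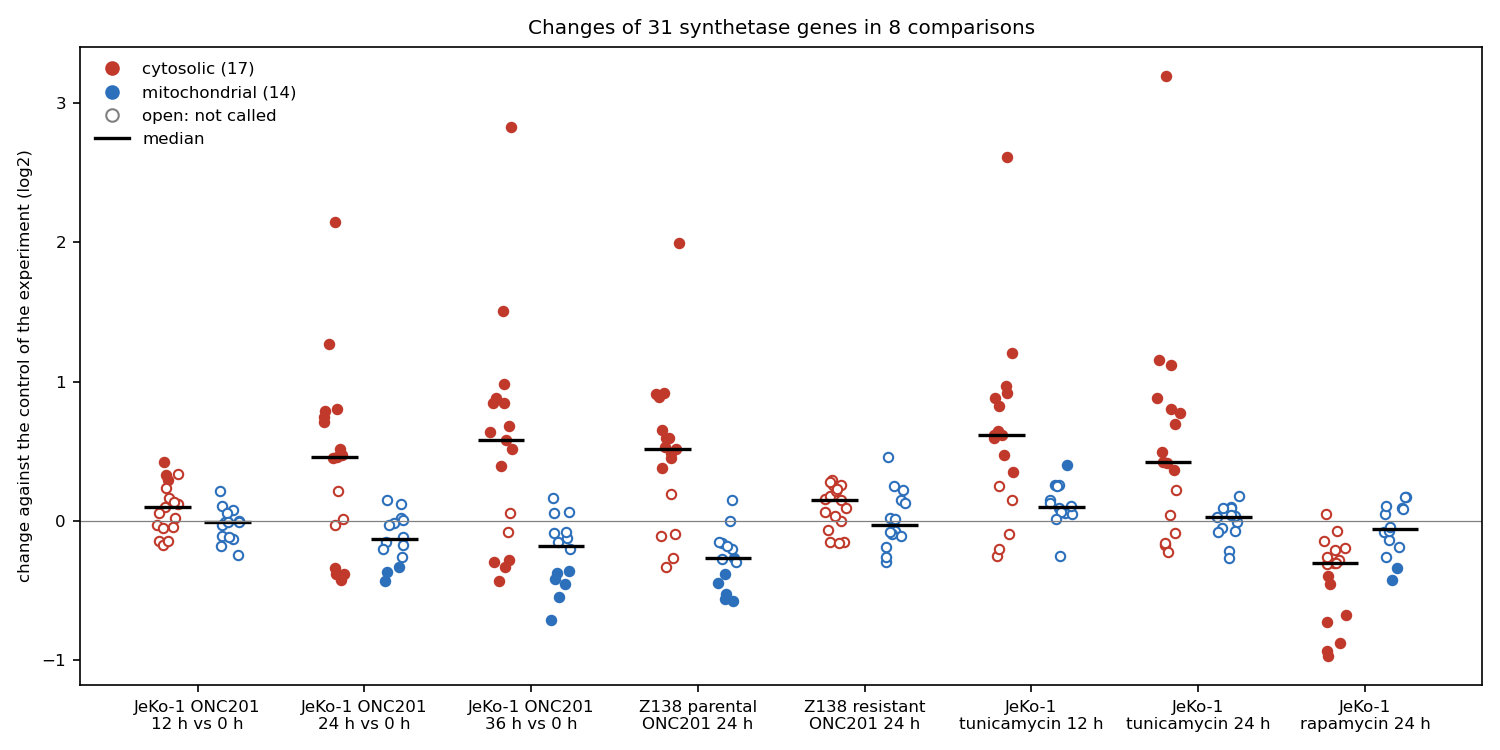
Change (log2, vertical axis) of the 17 cytosolic (red) and 14 mitochondrial (blue) genes in 8 comparisons along the horizontal axis, each against the control of its own experiment; filled points were called, open points were not, and black bars are medians. The cytosolic median was 0.46 and 0.58 with ONC201 at 24 and 36 h in JeKo-1, 0.52 in parental Z138, 0.15 in resistant Z138 and -0.30 with rapamycin, and the mitochondrial medians ran from -0.27 to 0.10.

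Whether both lines gave the same response was asked by subtracting the parental Z138 effect from the JeKo-1 effect at 24 h; the first has its control at 24 h and the second at 0 h, so time in culture is part of this difference, as is the chip. Of the 17 cytosolic genes 3 were called lower and 0 higher (3 and 1 at an unadjusted p under 0.05; limma), and of the 14 mitochondrial genes 2 higher and 0 lower (3 and 0 unadjusted), against 13.8% of 8158 genes higher and 13.6% lower. HARS1, for histidine, differed by -0.58 ± 0.11, with 10.29 and 10.17 in control and 10.58 and 10.27 in treated parental wells, which overlapped. QARS1 differed by -0.48 ± 0.10, reading 12.52, 12.66 and 12.66 at 0 h and 12.59, 12.62 and 12.68 at 24 h in JeKo-1, where its groups overlapped. RARS1 differed by -0.29 ± 0.09, with 10.54 and 10.64 in control and 10.46 and 10.52 in treated parental wells. VARS2 differed by 0.54 ± 0.12, reading 10.39, 10.48 and 10.33 at 0 h and 10.28, 10.38 and 10.45 at 24 h in JeKo-1 without a change that was called, and FARS2, the mitochondrial phenylalanine enzyme, by 0.29 ± 0.09. FARS2 read 9.20 and 9.21 in control and 8.89 and 8.98 in treated parental wells, and 8.59, 8.60 and 8.68 at 0 h and 8.66, 8.68 and 8.60 at 24 h in JeKo-1. WARS1, at 0.15 ± 0.11, was not called (limma, adjusted p = 0.343), nor were SARS1 at 0.36 ± 0.13 and GARS1 at -0.09 ± 0.14. The calls of RARS1 and FARS2 were lost in at least 1 fit that left out an array. Across the 17 cytosolic genes, which share arrays and are not independent, the changes in JeKo-1 at 24 h and in parental Z138 had a Pearson correlation of 0.93 (0.87 without WARS1), and across the 14 mitochondrial genes 0.55.

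Tunicamycin gave a comparison with stress that starts in the endoplasmic reticulum. The untreated wells of this experiment were all taken at 24 h, so in the 12 h comparison tunicamycin and hours in culture cannot be told apart. At 12 h with tunicamycin 12 of 17 cytosolic genes were called higher and 0 lower, with a median of 0.61 (0.03 for all genes; 13.9% of 9498 genes higher and 11.7% lower), and at 24 h it raised 11 and lowered 0, with a median of 0.43 (17.3% higher and 15.4% lower). At an unadjusted p under 0.05 limma put 2 cytosolic genes lower at 12 h and 1 at 24 h. WARS1 read 9.39 and 9.53 in untreated wells, 12.07 and 12.07 at 12 h and 12.72 and 12.59 at 24 h with tunicamycin, without overlap between the 3 groups. It rose by 2.62 ± 0.09, or 6.13-fold, and by 3.19 ± 0.09, or 9.15-fold (limma, adjusted p = 1.16e-05 and 1.86e-06). No member rose further in any comparison with a control. SARS1 went from 10.59 and 10.55 to 11.69 and 11.86 at 12 h and 11.69 and 11.77 at 24 h, rises of 1.20 ± 0.09 and 1.16 ± 0.09. MARS1 read 10.61 and 10.60 untreated, 11.53 and 11.62 at 12 h and 11.52 and 11.46 at 24 h and rose by 0.97 ± 0.10 and 0.88 ± 0.10. Both are enzymes of the cytosol alone, SARS1 outside and MARS1 inside the multisynthetase complex. IARS1 read 10.54 and 10.89 untreated, 11.42 and 11.67 at 12 h and 11.85 and 11.83 at 24 h and rose by 0.83 ± 0.15 and 1.12 ± 0.15. GARS1 went from 12.27 and 12.33 untreated to 13.10 and 13.25 at 12 h and 13.18 and 13.01 at 24 h and rose by 0.88 ± 0.11 and 0.80 ± 0.11. AARS1 went from 12.92 and 12.94 to 13.83 and 13.87 at 12 h and 13.77 and 13.64 at 24 h and rose by 0.92 ± 0.09 and 0.78 ± 0.09. In all of these genes the treated arrays of both times lay above the untreated ones. YARS1, EPRS1, NARS1, TARS1 and LARS1 were called higher at both times, with rises of 0.47 to 0.65 at 12 h and 0.37 to 0.69 at 24 h, and VARS1 was called at 12 h alone, at 0.36 ± 0.10, and stood at 0.04 ± 0.10 at 24 h. In untreated cells VARS1 differed by -0.32 between 0 h and 24 h, across chips. KARS1, at 10.53 and 10.84 in untreated wells, 10.74 and 10.94 at 12 h and 10.57 and 10.45 at 24 h, was not called at either time, and neither were FARSA, HARS1, QARS1 and RARS1.

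Of the 14 mitochondrial genes 2 were called higher at 12 h, near the 13.9% of all genes, and 0 lower, and at 24 h 0 rose and 0 fell (limma; at an unadjusted p under 0.05, 3 were higher and 1 lower at 12 h, and 0 higher and 2 lower at 24 h). The 2 were NARS2, for asparagine, at 0.40 ± 0.09, and SARS2, for serine, at 0.26 ± 0.08, both against untreated wells taken at 24 h. Between untreated cells at 0 h and at 24 h, again across chips, SARS2 differed by -0.49 and NARS2 by 0.10. Medians were 0.10 at 12 h and 0.03 at 24 h. The count of cytosolic rises at 24 h was 7 without the 24 h tunicamycin replicate 2. Calls of LARS1, NARS1, VARS1, NARS2 and SARS2 at 12 h and of EPRS1, LARS1, NARS1 and TARS1 at 24 h were each lost in at least 1 fit that left out an array.

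With rapamycin, the mTORC1 inhibitor, 8 of the 17 cytosolic genes fell and 0 rose, with a median of -0.30 (limma; 0 higher and 11 lower at an unadjusted p under 0.05), against 12% of all genes called higher and 12.6% lower. TARS1 read 10.22 and 10.27 in untreated and 9.32 and 9.23 in rapamycin wells and fell by 0.97 ± 0.10 (limma, adjusted p = 0.000889). GARS1, at 11.45 and 11.27 with rapamycin, fell by 0.93 ± 0.11, and MARS1, at 9.63 and 9.83, fell by 0.87 ± 0.10. The treated wells of all 3 lay below the untreated wells, with no overlap. SARS1, at 9.81 and 9.87, and YARS1 fell by 0.73 and 0.68, and NARS1, AARS1 and WARS1 fell by 0.45, 0.40 and 0.30. WARS1, at 9.16 and 9.15, lost its call in every fit that left out an array of this experiment, and missed the threshold when p-values were adjusted over probes (limma, adjusted p = 0.0666), while the second probe gave -0.43 ± 0.10 (0.0269). EPRS1, IARS1, LARS1 and VARS1, at -0.31 to -0.26, were not called, and KARS1, at 10.50 and 10.45, stood at -0.21 ± 0.13. Among the mitochondrial genes, MARS2 fell by 0.42 ± 0.09 and RARS2, for arginine, fell by 0.34 ± 0.09, while the other 12 were not called and the median was -0.06 (0 higher and 2 lower at an unadjusted p under 0.05). The count of cytosolic falls was 5 without control replicate 1, control replicate 2 or rapamycin replicate 2, and calls of AARS1, NARS1, WARS1, MARS2 and RARS2 were each lost in at least 1 fit that left out an array.

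Set directly against each other at 24 h, tunicamycin and rapamycin wells differed in 13 cytosolic genes, all higher with tunicamycin, and 0 were lower (limma; 1 lower at an unadjusted p under 0.05), against 18.2% of all genes higher and 16.5% lower. The difference was 3.50 ± 0.09 for WARS1, 1.89 ± 0.09 for SARS1, 1.76 ± 0.10 for MARS1 and 1.74 ± 0.11 for GARS1, and the cytosolic median was 0.87. HARS1, KARS1, QARS1 and RARS1 were not called. MARS2, at 0.34 ± 0.09, was the single mitochondrial gene called, and its call and those of FARSA and VARS1 were lost in at least 1 fit that left out an array.

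**Figure D3:**
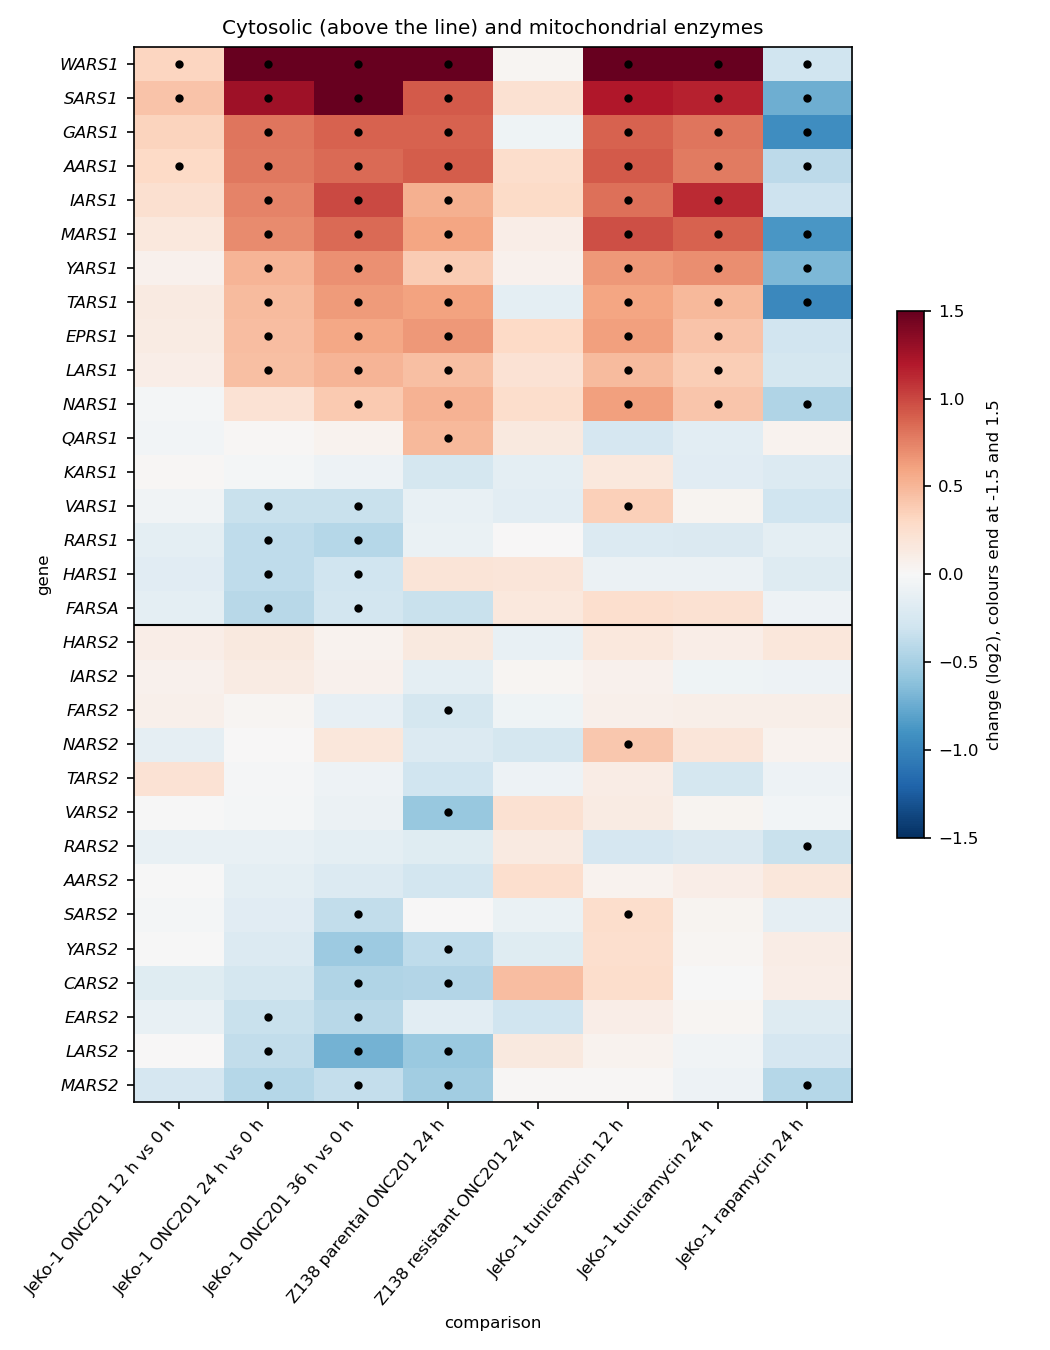
Change (log2, colour, red higher and blue lower, with colours ending at -1.5 and 1.5) of each of the 31 genes (rows, cytosolic above the line, ordered within a compartment by the change at 24 h with ONC201 in JeKo-1) in 8 comparisons (columns); a dot marks a call. The column of resistant Z138 cells holds 0 dots, and KARS1, AARS2, HARS2, IARS2 and TARS2 have none in any column.

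The response of JeKo-1 cells to ONC201 at 24 h was also set against that to tunicamycin at 24 h by testing the difference of the 2 effects, with the same difference in control times and chips as above. Over 8595 genes 13.3% were called higher and 13.3% lower. Of the cytosolic genes 3 were called lower and 0 higher (4 and 0 at an unadjusted p under 0.05), and of the mitochondrial genes 0 were called (2 lower and 0 higher unadjusted; limma). WARS1 rose less with ONC201 by 1.05 ± 0.12 (limma, adjusted p = 5.91e-06), FARSA was lower by 0.64 ± 0.10 and HARS1 by 0.30 ± 0.10. FARSA read 9.54 and 9.47 in untreated and 9.75 and 9.71 in tunicamycin wells, and HARS1 10.09 and 10.19 untreated and 10.07 and 10.05 with tunicamycin. FARSA and HARS1 are among the genes whose level at 0 h stood above that of untreated cells at 24 h, and the call of HARS1 was lost in at least 1 fit that left out an array. At 36 h, ONC201 had brought WARS1 to a mean of 12.56, beside 12.72 and 12.59 with tunicamycin at 24 h on the other chip. Across the 17 cytosolic genes the changes with ONC201 and with tunicamycin at 24 h had a Pearson correlation of 0.93 (0.90 without WARS1), and those with ONC201 and with rapamycin -0.44 (-0.68 without WARS1). Across the 14 mitochondrial genes these were 0.15 and 0.55. The genes of such a correlation come from the same arrays, and the pairs compared share no control arrays.

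**Figure D4:**
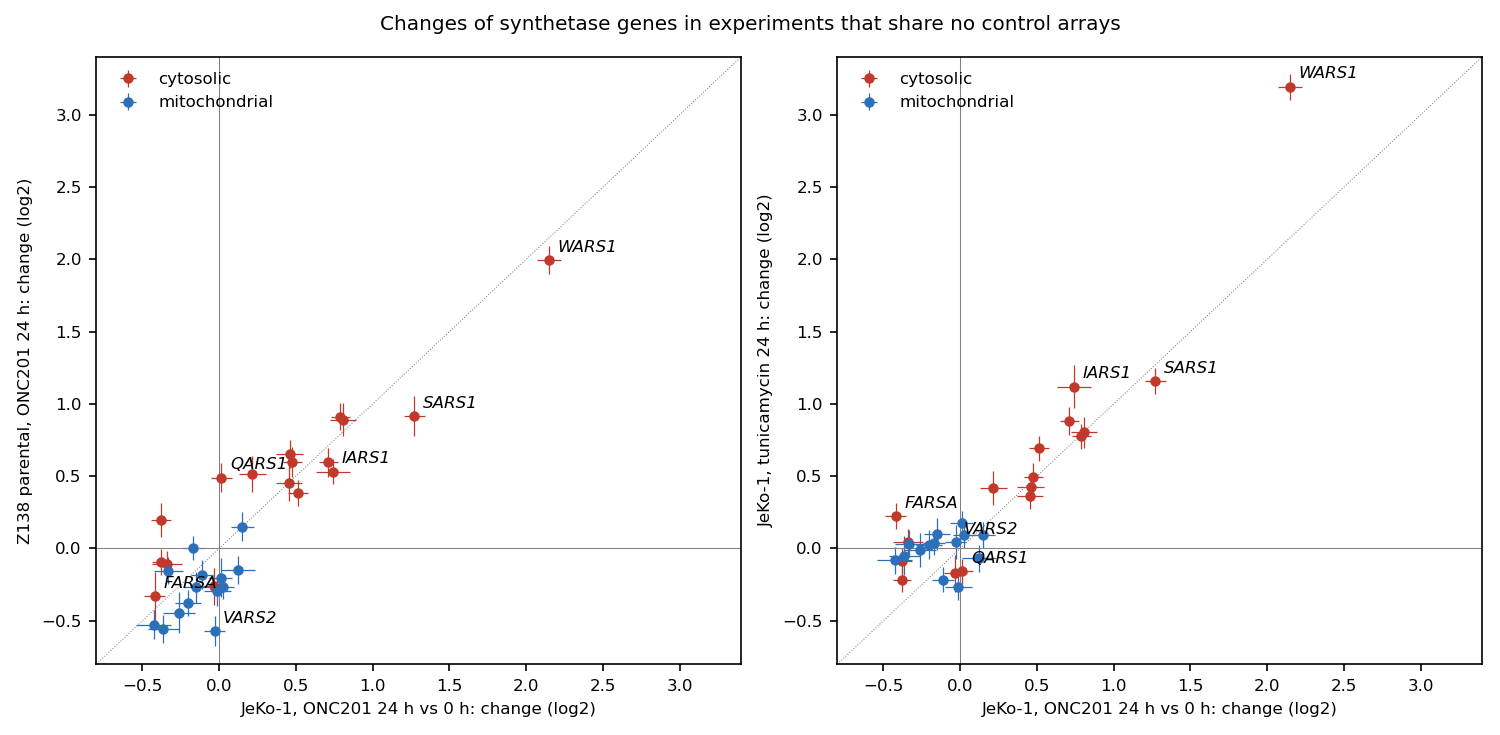
Change (log2) of the 31 genes with ONC201 at 24 h in JeKo-1 (horizontal axis) against the change with ONC201 in parental Z138 cells (left) or with tunicamycin at 24 h in JeKo-1 (right); bars are standard errors, and the dotted line marks equal change. Cytosolic genes (red) run along the line in both panels with correlations of 0.93 each, WARS1 lies above it on the right, and VARS2 lies below it on the left.

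The cytosolic genes were also grouped by complex, structural class and promoter. The multisynthetase complex is a cytosolic assembly that holds EPRS1, IARS1, KARS1, LARS1, MARS1, QARS1 and RARS1. At 24 h with ONC201 in JeKo-1, 4 of these 7 rose and 1 fell with a median of 0.46, and of the 10 genes outside it 6 rose and 3 fell with a median of 0.49. The shares over all genes were 19.9% higher and 18.5% lower there. With rapamycin 1 of the 7 and 7 of the 10 fell, with medians of -0.26 and -0.42. Over all genes 12.6% were called lower with rapamycin, so that the 1 of 7 is near that share. By structural class, 5 of 8 class I enzymes rose and 2 fell at 24 h in JeKo-1, and 4 of 8 class II enzymes rose and 2 fell. Their medians were 0.48 and 0.35, with EPRS1, which belongs to both classes, left out. By promoter, the 6 measured genes with TGATGNAA shown above (AARS1, GARS1, IARS1, MARS1, NARS1 and TARS1) had a median of 0.73 at 24 h with ONC201 in JeKo-1 (5 rose, 0 fell), 0.60 in parental Z138 (6 rose), 0.79 with tunicamycin at 24 h (6 rose) and -0.66 with rapamycin (5 fell). Over all genes 22.8% were called higher in parental Z138 and 17.3% with tunicamycin at 24 h. The 8 measured cytosolic genes with a window and no match had medians of -0.01, 0.34, 0.07 and -0.20 in these comparisons, and they include WARS1 and SARS1 as well as FARSA, HARS1 and RARS1. YARS2, the mitochondrial gene with a match, stood at -0.20 ± 0.08, -0.38 ± 0.09, 0.03 ± 0.10 and 0.11 ± 0.10. HARS1 and HARS2 lie head to head, and their windows share 184 bases (chr5:140691321-140691504); HARS1 was called lower in JeKo-1 with ONC201 at 24 h at -0.38 ± 0.06, and HARS2, at 0.15 ± 0.07, was not called there or in any other comparison.

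Genes known to act beside the synthetases were counted in lists. Over all genes, 19.9% were called higher and 18.5% lower at 24 h with ONC201 in JeKo-1, and 22.8% and 22% in parental Z138. These shares were 0.18% and 0.488% in resistant Z138, 17.3% and 15.4% with tunicamycin at 24 h and 12% and 12.6% with rapamycin. Of 9 genes of the ATF4 and CHOP response 9 rose at 24 h with ONC201 in JeKo-1, 9 in parental Z138, 9 with tunicamycin at 24 h and 0 in resistant Z138, and 9 fell with rapamycin, with medians of 1.62, 1.47, 1.53, 0.28 and -1.31. DDIT3, which encodes the transcription factor CHOP, changed by 2.18 ± 0.08 in JeKo-1 at 24 h, 2.62 ± 0.11 in parental Z138 and 2.30 ± 0.13 with tunicamycin at 24 h, and TRIB3, a pseudokinase that CHOP and ATF4 induce, by 3.66 ± 0.08, 2.88 ± 0.09 and 2.95 ± 0.09. Of 9 measured amino acid transporter genes 8 rose at 24 h with ONC201 in JeKo-1, 9 in parental Z138, 8 with tunicamycin at 24 h and 0 in resistant Z138, and 5 fell with rapamycin. SLC3A2, the heavy chain of several transporters, rose by 1.00 ± 0.07 in JeKo-1 at 24 h, 1.02 ± 0.10 in parental Z138 and 1.39 ± 0.11 with tunicamycin at 24 h. SLC6A9, a glycine transporter, was not detected at 0 h in JeKo-1 and was at least 3.67-fold higher there at 24 h with ONC201, taking the lowest signal among detected probes of each array as its ceiling at 0 h. WARS1 is also known as a gene induced by interferon, and of the 6 measured interferon response genes 1 rose and 2 fell at 24 h in JeKo-1, with a median of -0.28, and 1 rose and 1 fell in parental Z138. IRF1, a transcription factor of that response, was the 1 that rose, by 0.71 ± 0.10 and 0.29 ± 0.10, and it also rose with tunicamycin at 24 h by 0.94 ± 0.09. The counts of rises in this list with ONC201 were near the shares over all genes. Any part of interferon in the WARS1 changes was not tested.

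On the mitochondrial side, 5 genes that complete or modify transfer RNA were measured in JeKo-1. Of these, 3 fell and 0 rose at 24 h with ONC201 and 5 fell at 36 h, with medians of -0.26 and -0.45. Of all genes 18.5% were called lower at 24 h and 26% at 36 h. The control of that course was at 0 h, so hours in culture are part of these changes. In parental Z138 2 of 4 measured fell and 0 rose, with a median of -0.36 (22% of all genes lower). With tunicamycin at 24 h 1 of 5 fell and 0 rose, with a median of -0.28 (15.4% lower). With rapamycin 0 fell and 1 rose, with a median of -0.11 (12% higher). GATC, a subunit of the enzyme that turns glutamate into glutamine on mitochondrial transfer RNA, stood at -0.50 ± 0.13 at 24 h in JeKo-1 and at -0.86 ± 0.13 in parental Z138, and MTFMT, which formylates the initiator methionine, at -0.39 ± 0.12 at 36 h and -0.57 ± 0.12. Of 8 mitochondrial translation factors 1 rose and 1 fell at 24 h in JeKo-1 (all genes: 19.9% higher and 18.5% lower). In parental Z138 2 rose and 1 fell (all genes: 22.8% and 22%). Both sets of counts are near the shares over all genes. TSFM, an elongation factor, fell by 0.29 in JeKo-1 and 0.67 in parental Z138, and MTIF2, an initiation factor, rose by 0.53 ± 0.06 and 0.60 ± 0.09. GCN1, a partner of the kinase that senses uncharged transfer RNA, was the 1 measured gene of its list and was not called in any comparison, at -0.15 ± 0.07 and 0.06 ± 0.13. Of the 3 scaffold genes of the multisynthetase complex 1 was named on the array, and it did not pass the detection filter.

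Markers of B-lineage states were counted too, and their part in the results was not tested. Of 4 measured B-cell markers 3 fell at 24 h with ONC201 in JeKo-1 (18.5% of all genes lower) and 2 in parental Z138 (22%). With tunicamycin at 24 h 1 of these B-cell markers fell and 0 rose (15.4% of all genes lower), and with rapamycin 4 rose (12% higher). Their summed signal ran from 18200 to 20500 intensity units at 0 h, from 14000 to 15300 at 24 h and from 11200 to 11800 at 36 h in the JeKo-1 course. In parental Z138 it was 6010 to 7100 without and 5630 to 6030 with ONC201, and in the third experiment 15500 to 16000 untreated, 16400 to 17100 with tunicamycin at 24 h and 19300 to 20100 with rapamycin. Of 4 plasma cell markers 2 rose at 24 h with ONC201 in JeKo-1 (19.9% of all genes higher) and 3 in parental Z138 (22.8%). With tunicamycin at 24 h 2 of these plasma cell markers rose (17.3%), and with rapamycin 0 (12%). Their summed signal was 807 to 882 at 0 h and 1090 to 1150 at 24 h in the JeKo-1 course, and 3530 to 3780 without and 5400 to 5740 with ONC201 in parental Z138, while resistant Z138 cells stood at 3720 to 3880 without and 3880 to 3940 with it. With tunicamycin at 24 h it was 2190 to 2210 against 1400 to 1420 untreated. Untreated JeKo-1 cells at 24 h, at 1400 to 1420, thus stood above the 1090 to 1150 with ONC201 at 24 h. Their B-cell marker sum of 15500 to 16000 lay below that at 0 h and above that with ONC201 at 24 h. Time in culture and chip cannot be told apart in these differences. Markers of T cells, monocytes and NK cells were low throughout, with summed signals of at most 205, 186 and 105 on any array. Of their genes CD3G was called lower in parental Z138 with ONC201, at -0.81 ± 0.15. In the resistant minus parental effect CD3G was called higher, at 0.71 ± 0.21, and both measured monocyte genes were called, CD14 higher, at 0.63 ± 0.15, and FCGR3A lower, at -0.65 ± 0.18. SOX11, the lymphoma marker measured in both lines, was not called at 24 h in JeKo-1 (0.07 ± 0.06) and rose by 1.03 ± 0.10 in parental Z138, where CCND1, the other lymphoma marker measured, was called lower at -0.41 ± 0.10. In the resistant minus parental effect SOX11 was called lower, at -1.25 ± 0.15, and CCND1 higher, at 0.53 ± 0.14.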

How the data were processed

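RNA from 28 wells was hybridised to Illumina HumanHT-12 arrays. The authors deposited intensity values (mean bead signals) and detection p-values per probe, per the file headers, made with GenomeStudio per the submitters' processing notes and neither background-corrected nor normalized. A background-subtracted intensity table and a normalized one on a linear scale, also deposited by the authors, served as alternatives; the latter had array medians of 23.6 to 25.3 and matched the raw signals of the same array best on all 28 arrays, and its normalization method is not given in the sources used here. Of 47231 probes, 27004 carried 1 gene symbol in the platform annotation, 4 several and 20223 none. For 26970 the current symbol was looked up by gene ID, whether or not it differed from the old one. Here neqc in limma 3.58.1 (R 4.3.3; package data.table, version 1.17.8) was applied to all 28 arrays with detection p-values and an offset of 16, followed by quantile normalization and log2. A probe was kept where its detection p was under 0.01 on at least 3 arrays in the JeKo-1 course or 2 in the other experiments, and each gene was represented by its brightest probe. Linear models without a replicate block were fitted within each experiment over all genes, those across experiments in fits of both JeKo-1 experiments or of all 28 arrays, with Benjamini-Hochberg adjustment over all genes; the fitting was tested on simulated data. Promoter motifs were searched and figures drawn with Python 3.11.15, pandas 2.3.3 and matplotlib 3.10.9.

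The members and gene lists were chosen with earlier results of these data known, so counts over them carry no independent support. Values on every array are given for WARS1, GARS1 and KARS1, for the top 3 called members in each direction of a comparison by size of change, and for mitochondrial members called at a log2 change of at least 0.5 in size; of each gene list up to 4 with the largest change in a comparison are named. Alternatives were the deposited tables, no background correction, an offset of 50, another or no detection filter, separate normalization of each experiment, the mean of detected probes, a trended robust prior, a replicate block and leaving out each array.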

Additional observations from a re-analysis of the deposited data

Results flagged for a closer look

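The response to 5 µM ONC201 at 24 h differed between resistant and parental Z138 cells in 11 synthetase genes by a direct test of the difference of the 2 effects (limma interaction term), given here as the resistant minus the parental log2 change. In the cytosolic genes it was -1.962 for WARS1, -0.959 for GARS1, -0.749 for TARS1, -0.687 for SARS1, -0.649 for AARS1 and -0.5 for MARS1. In the mitochondrial genes it was 0.906 for CARS2, 0.796 for VARS2, 0.709 for LARS2, 0.54 for MARS2 and 0.52 for AARS2. The cause of these differences was not tested. Of the 31 members, 5 were called higher and 6 lower in this test, near the 14.3% and 16.3% of all genes. Split by compartment, 6 of 17 cytosolic genes were lower and 0 higher, and 5 of 14 mitochondrial genes were higher and 0 lower. The 6 of 17 and the 5 of 14 lie above the shares of all genes. The response at 24 h also differed between JeKo-1 and parental Z138 cells in 5 genes, with the JeKo-1 minus the Z138 log2 change at -0.576 for HARS1, -0.475 for QARS1, -0.286 for RARS1, 0.29 for FARS2 and 0.54 for VARS2. JeKo-1 was compared with 0 h and Z138 with untreated cells at 24 h, on another chip, so line, control time and chip cannot be told apart in these 5. Of the 31 members, 2 were called higher and 3 lower here, below the 13.8% and 13.6% of all genes. Split by compartment, 3 of 17 cytosolic genes were lower and 2 of 14 mitochondrial genes higher, near those shares. No group had enough wells for a check of single outlying samples.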

How the results depend on the processing

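Over the 15 comparisons 147 calls were made on synthetase genes, and no call changed its direction under any alternative or without any array. With all arrays, 123 calls were kept under every alternative and 24 were lost under at least 1: 21 with no detection filter, 13 in the deposited normalized values, 10 with a replicate block, 8 at a detection p of 0.05, 2 with the deposited background subtraction, 1 with separate normalization and 0 under each other alternative. The 4 cytosolic falls from 12 to 24 h became 2 at a detection p of 0.05 and 2 with no filter, where more genes were tested, and the 3 mitochondrial falls at 24 h in JeKo-1 became 5 with a trended robust prior. Replicate numbers did not pair the wells: deviations of same-numbered wells correlated at -0.15 to 0.08 in the JeKo-1 course, -0.059 to 0.066 in Z138 and -0.039 to 0.023 in the third experiment. With the replicate block the 3 cytosolic rises at 12 h became 1 and the 4 falls from 12 to 24 h became 2. Leaving out each array in turn gave 1 to 2 cytosolic rises at 12 h, 0 to 4 cytosolic falls from 12 to 24 h, 3 to 7 mitochondrial falls in parental Z138, 3 to 5 mitochondrial genes higher in the resistant minus parental effect, 7 to 11 cytosolic rises with tunicamycin at 24 h and 5 to 7 cytosolic falls with rapamycin. In all, 45 calls were lost without at least 1 array, and 102 never. The cause of these changes was not tested. Counting GARS1 and KARS1 with the mitochondrial enzymes gave that group 1 rise at 24 h in JeKo-1. Signals near background left FARSB and WARS2 untested, while the 31 tested genes were detected on all 28 arrays. Groups of 2 wells limit what could be called.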
